A study of Homo sapiens with 18 samples.

Results

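ULK1 and GABARAPL1 are autophagy genes whose transcripts were lower after FTO knockdown in UMRC2 cells, and they make up 2 of the 1242 genes in the differential expression table used here. Both were selected on this table because it names them as calls of the shFTO#5 comparison, so their shFTO#5 values against shControl are a description and carry no test. UMRC2 is an established human clear cell renal carcinoma line. The 6 RNA-seq libraries came from cells with the FTO hairpin shFTO#5, with the FTO hairpin shFTO#2 or with the control hairpin shControl, 2 libraries each, all grown in serum-containing DMEM. Another 12 libraries of m6A input and immunoprecipitated RNA belong to the series of 18 samples and were not analysed here. Both FTO groups are knockdowns in 1 cell line, each with a single hairpin, and the sources used here do not say whether the cells are a clone or a pool.

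FTO is a demethylase that removes N6-methyladenosine (m6A), a methyl mark on adenosines of messenger RNA. Autophagy delivers cytoplasmic proteins and organelles to lysosomes inside double-membrane vesicles called autophagosomes. ULK1 is the serine/threonine kinase that starts the process: it acts in a complex with ATG13, RB1CC1 and ATG101, is activated by AMPK in energy shortage and is inhibited by mTORC1 when amino acids are plentiful. GABARAPL1 belongs to the ATG8 family, small ubiquitin-like proteins that are attached to phosphatidylethanolamine on the autophagosome membrane, where they hold cargo receptors and help fusion with lysosomes. Proteins of the GABARAP subfamily also bind ULK1 through its LC3-interacting region. In the kidney, autophagy is known for its part in keeping tubule cells intact under low oxygen and nutrient stress.

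ULK1 (ENSG00000177169) lies on the plus strand of chromosome 12 at chr12:131894651-131923167 and GABARAPL1 (ENSG00000139112) on the plus strand at chr12:10212458-10223130, both protein coding in GENCODE release 29 on GRCh38, the build the submitters' processing notes name as hg38. The members therefore share a chromosome but sit at opposite ends of it. Their promoters are shown because both transcripts were lower together, with the 250 bases before and 50 after the RefSeq start site (GRCh38.p14, plus strand, 5′ to 3′). Capitals mark GGGCGG, the GC box bound by SP1-family factors, and TGACG, the core of the cAMP response element, on either strand. The ULK1 window is chr12:131894372-131894671 and the GABARAPL1 window is chr12:10212627-10212926. The GABARAPL1 window lies wholly within the GENCODE gene, which begins upstream of it, so it describes the RefSeq start only.
ULK1: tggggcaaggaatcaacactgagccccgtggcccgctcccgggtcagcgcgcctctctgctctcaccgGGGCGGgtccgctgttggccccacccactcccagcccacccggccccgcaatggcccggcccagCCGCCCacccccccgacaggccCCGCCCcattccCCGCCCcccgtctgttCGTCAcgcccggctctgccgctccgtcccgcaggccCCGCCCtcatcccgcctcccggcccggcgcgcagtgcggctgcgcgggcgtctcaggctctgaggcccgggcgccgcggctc
GABARAPL1: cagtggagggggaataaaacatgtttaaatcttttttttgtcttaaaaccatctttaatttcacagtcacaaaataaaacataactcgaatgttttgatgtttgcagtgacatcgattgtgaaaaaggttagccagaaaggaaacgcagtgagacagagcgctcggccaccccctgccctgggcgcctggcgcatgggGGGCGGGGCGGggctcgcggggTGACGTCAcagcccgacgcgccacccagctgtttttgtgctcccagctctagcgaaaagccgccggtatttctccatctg

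The ULK1 window was 78.3% G and C, and the GABARAPL1 window 51.7%. GC boxes occurred 5 times in ULK1, at 182, 118, 96, 84 and 32 bases before the start, and 2 times, overlapping each other, in GABARAPL1, at 52 and 47 bases before it. A GC box is common, since 45.0% of the 35116 RefSeq promoter windows hold at least 1 on either strand. Among the 1479 windows of listed genes, 67.5% do. TGACG occurred once in ULK1, on the minus strand 68 bases before the start. In GABARAPL1 it occurred on both strands, starting 30 and 27 bases before the start, and these overlapping matches form the palindrome TGACGTCA, the full cAMP response element. TGACG was found in 24.6% of all windows and TGACGTCA in 1.85%, beside 28.6% and 2.10% of the windows of listed genes. Neither window held, on either strand, CACGTG (the E-box of TFEB-family and MYC proteins, in 7.26% of all windows), GTAAACA (a forkhead motif, 3.42%), TGACTCA (an AP-1 motif, 4.95%) or TGACNNNGC (the antioxidant response element core, 13.3%). Among the windows of listed genes, the shares of these absent motifs were 11.4%, 2.10%, 3.92% and 14.5% in the same order. The matches describe letters in 1 window per gene, and no binding was measured.

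**Figure D1:**
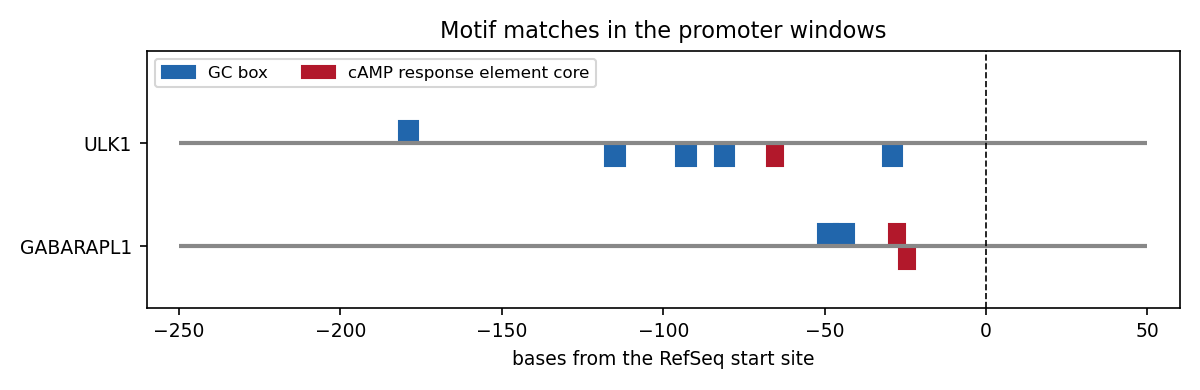
Motif matches in the promoter windows of ULK1 (top) and GABARAPL1 (bottom), by distance in bases from the RefSeq start site (dashed line), with plus-strand matches above each line and minus-strand matches below it. ULK1 has 5 GC boxes and 1 cAMP response element core spread over the window, whereas all matches in GABARAPL1 lie within 52 bases of the start.

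Because FTO acts on m6A, the GGACT core nearest the stop codon is also shown for each member, with 10 bases on either side. GGACT is a frequent form of the m6A consensus, and m6A is known to gather around stop codons. In ULK1 the nearest core begins 68 bases after the first base of the stop codon (chr12:131921417-131921441, plus strand), and in GABARAPL1 34 bases after it (chr12:10221874-10221898, plus strand), both in the 3′ UTR of the GENCODE transcripts ULK1-201 and GABARAPL1-201. Capitals mark the core.
ULK1: tgtgctggctGGACTcctcgggaca
GABARAPL1: gggagcacctGGACTtgggggtagg
Each member held 1 GGACT in the 200 bases around its stop codon, and 22.2% of 18048 coding genes and 21.6% of the 1182 listed genes with such a window held at least 1. Over the whole transcript, ULK1-201 held 7 cores, or 1.32 per kilobase, and GABARAPL1-201 held 2, or 1.02 per kilobase. The median over all coding genes was 0.931. That median and the shares above use the longest coding transcript of each gene, whereas GABARAPL1-201 (1957 bases) is shorter than the coding GABARAPL1-218 (2294 bases). The sequences show only where the letters stand, and methylation at them was not analysed here.

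FTO itself, the targeted gene (ENSG00000140718), had 0.555 and 0.526 FPKM in the shFTO#5 libraries and 0.882 and 0.720 FPKM in the shFTO#2 libraries, against 1.99 and 2.37 FPKM in the shControl libraries. FPKM is a read count scaled to the gene's length and to the library's total. All 4 knockdown libraries lay below both controls, at 24.8% of the control mean with shFTO#5 and 36.7% with shFTO#2. Against shControl, either hairpin gave a two-sided p of 0.333 in an exact permutation test, which cannot go lower with groups of 2. The totals behind the FPKM values ranged from 14548533 to 18184675 reads. Of 10 markers of kidney and clear cell renal carcinoma, 6 (PAX8, PAX2, CA9, KRT8, KRT18 and LRP2) were listed in the table, and 0 of 8 markers of leukocytes, endothelium, fibroblasts and pericytes were. Listing shows that the authors called a gene with shFTO#5, as they did 13.0% of the 9551 genes tested. It does not show whether an unlisted gene was expressed, so these counts are no measure of cell identity or purity.

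The shFTO#2 values of the table do not stand on the lines of their genes. They were placed here through the whole read count that each value gives back with the right gene length, and through the gene order. This placed 561 of the 766 filled lines and left 205 without a gene. The values placed on ULK1 gave whole reads with the length of ULK1 and of no other listed gene, and stood between those of EPS8L2 and AP3S1. Those placed on GABARAPL1 also gave whole reads with ANKRD13B, which has the same listed length of 3214 bases, and the gene order decided between them. A second line was whole with the GABARAPL1 length, at 16.8 FPKM in both shFTO#2 libraries, and was not placed on it. Every statement on shFTO#2 rests on this placement, and every placed gene is by construction also a call of shFTO#5.

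ULK1, the initiating kinase, was lowest with shFTO#5, intermediate with shFTO#2 and highest in control cells. It had 11.1 and 10.6 FPKM (855 and 950 reads) in the shFTO#5 libraries and 12.4 and 13.2 FPKM (1145 and 1092 reads) in the shFTO#2 libraries, against 15.5 and 15.8 FPKM (1496 and 1365 reads) in the shControl libraries. The 3 groups did not overlap, and neighbouring groups in this order were further apart than the libraries within them. The means were 10.9 ± 0.299 FPKM with shFTO#5, 12.8 ± 0.592 with shFTO#2 and 15.7 ± 0.232 with shControl (SD, n = 2 each), which puts the knockdowns at 69.3% and 81.6% of the control mean. All 561 placed genes, ULK1 and GABARAPL1 among them, were called against shControl with both hairpins, so their separation from the controls goes with that selection. Separation of the hairpins alone held for 58.6% of the 561. In these bulk libraries, fewer cells that express a gene and less of its RNA per cell cannot be told apart.

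On the log2(FPKM + 1) scale, which understates changes of low genes, ULK1 had a change of -0.49 ± 0.06 (SE) with shFTO#5 and of -0.27 ± 0.05 with shFTO#2. Once the libraries had been centred on their medians over the placed genes, of which 353 of 561 were higher, the shFTO#2 change of ULK1 was -0.42. The authors' deposited table gave it log2 changes of -0.44 with shFTO#5 (adjusted p = 1.23e-06) and -0.24 with shFTO#2 (adjusted p = 0.0311). Such calls covered 13.0% of the 9551 genes tested with shFTO#5 by the arithmetic of the authors' deposited table, 4.83% lower and 8.18% higher. With shFTO#2 they covered 7.63% of 10038 genes, 3.46% lower and 4.17% higher, again by the arithmetic of the authors' deposited table. Both comparisons share the same 2 control libraries, so their values stand side by side and do not check each other.

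GABARAPL1, the ATG8-family protein, had a larger difference from control than ULK1, and one of much the same size with either hairpin. It had 11.8 and 10.6 FPKM (553 and 574 reads) in the shFTO#5 libraries and 11.8 and 10.3 FPKM (660 and 515 reads) in the shFTO#2 libraries, against 19.2 and 18.9 FPKM (1121 and 987 reads) in the shControl libraries. All 4 knockdown libraries lay well below both controls, and the libraries of the FTO hairpins overlapped each other. The means were 11.2 ± 0.849 FPKM with shFTO#5, 11.0 ± 1.05 with shFTO#2 and 19.0 ± 0.198 with shControl (SD, n = 2 each), or 59.0% and 57.9% of the control mean. The log2 change was -0.71 ± 0.06 (SE) with shFTO#5 and -0.74 ± 0.07 with shFTO#2. The authors' deposited table gave -0.63 with shFTO#5 (adjusted p = 9.30e-10) and -0.64 with shFTO#2 (adjusted p = 6.65e-10).

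**Figure D2:**
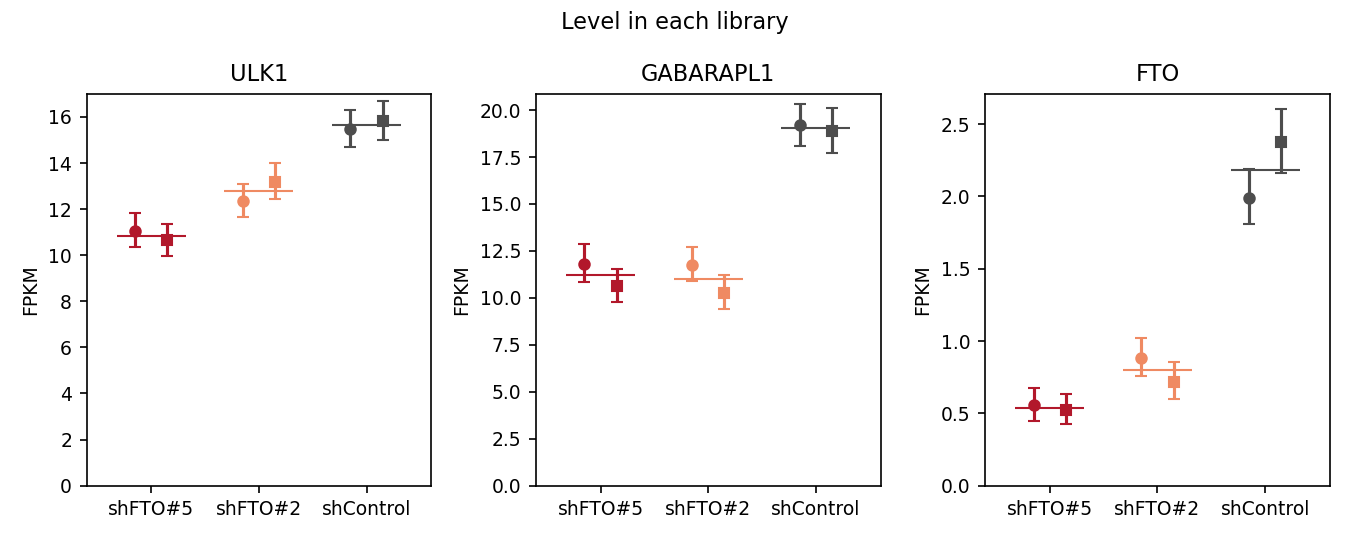
FPKM of ULK1, GABARAPL1 and FTO in each library (circle, replicate 1; square, replicate 2), with exact 95% Poisson intervals of the read counts as bars and group means as lines. The ULK1 means lie at 10.9, 12.8 and 15.7 FPKM, with intervals of the FTO hairpins that overlap, whereas the GABARAPL1 libraries of both FTO hairpins share the range from 10.3 to 11.8 FPKM, below the controls at 18.9 and 19.2 FPKM.

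The bars give the counting error of single libraries as exact 95% Poisson intervals, here as a description. For ULK1 the interval of shFTO#5 replicate 1, from 10.3 to 11.8 FPKM, overlapped that of shFTO#2 replicate 1, from 11.7 to 13.1 FPKM. The ULK1 intervals of the control libraries began at 14.7 FPKM, above those of all 4 knockdown libraries. For GABARAPL1 the highest upper bound was 12.9 FPKM with shFTO#5, and the lowest lower bound in the controls was 17.7 FPKM. These intervals cover counting error only, since reads are not independent molecules. Within the knockdown groups the GABARAPL1 replicates were further apart than the control replicates, with replicate 1 the higher in both.

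The libraries of the FTO hairpins were then set against each other within limma's fit of all 561 placed genes. The shFTO#5 values that enter these differences also put the members in the table, so the differences are given as values with no test. ULK1 differed by -0.22 ± 0.05 on the log2 scale (shFTO#5 minus shFTO#2, SE; 95% interval -0.33 to -0.10). Its libraries did not overlap between the hairpins, which held for 58.6% of the 561 genes. GABARAPL1 differed by 0.03 ± 0.07 (interval -0.14 to 0.19), and its libraries overlapped. FTO differed by -0.22 ± 0.07, with less FTO in the shFTO#5 libraries. This understates the FTO difference, as log2(FPKM + 1) compresses its means of 0.540 FPKM (shFTO#5) and 0.801 FPKM (shFTO#2). The FTO value therefore cannot be read as equal in size to that of ULK1.

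Among the 461 genes lower with shFTO#5, ranked by the ratio of FPKM means, GABARAPL1 stood in place 24 and ULK1 in place 100. Among the 208 placed genes lower with shFTO#2, they stood in places 13 and 152. The median absolute log2 change over all listed genes was 0.27 with shFTO#5 and 0.31 over the placed genes with shFTO#2. ULK1 thus lay past the median size of a listed change with shFTO#5 and below it with shFTO#2, while GABARAPL1 lay past it with both. Both were genes of modest level, at the 27.6th percentile (ULK1) and the 32.2nd percentile (GABARAPL1) of control FPKM among listed genes.

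**Figure D3:**
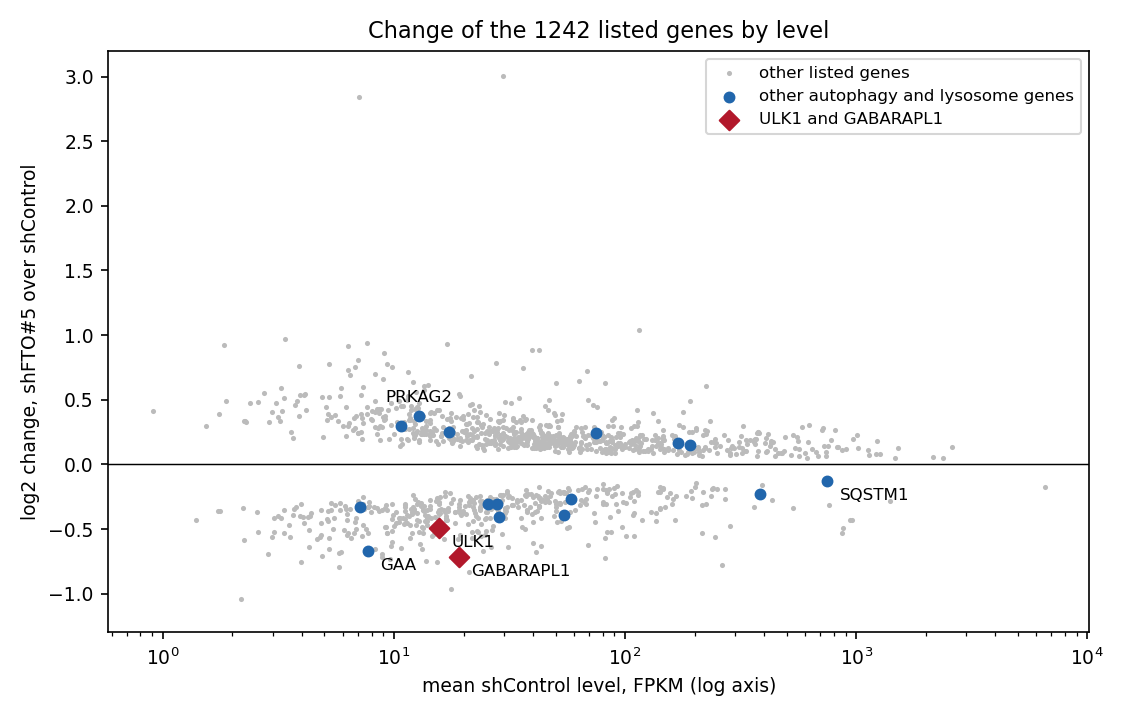
Log2 change with shFTO#5 over shControl, on the log2(FPKM + 1) scale, against the mean shControl level in FPKM (log axis), for the 1242 listed genes (grey), the listed autophagy and lysosome genes (blue) and the members (red diamonds). Among the lower genes at their level, ULK1 at -0.49 lies within the cloud and GABARAPL1 at -0.71 near its lower edge, and the empty band around 0 follows from listing called genes only.

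The FPKM levels depend on the gene length the authors used. The ULK1 length of 5310 bases equals that of its protein-coding transcript ULK1-201. The GABARAPL1 length of 3214 bases equals that of GABARAPL1-210, which GENCODE marks as a target of nonsense-mediated decay, whereas the coding transcript that matches RefSeq, GABARAPL1-201, has 1957 bases. With that length every GABARAPL1 level would be 1.64 times as high, so the similar FPKM of the members in knockdown cells is no measure of equal abundance. Fold changes between groups do not depend on the length.

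Reads shared with other loci are a limit for GABARAPL1. GABARAPL3 (chr15:90348844-90349197, minus strand) is a processed pseudogene of 354 bases, of which 338 (95.5%) are identical to bases 326 to 679 of GABARAPL1-201, or 18.1% of that transcript. The sources used here do not give how shared reads were assigned or whether the counting used strand. An antisense gene, AC115676.1 (chr12:10214161-10214761, minus strand), lies within GABARAPL1, and AC131009.4 (chr12:131896500-131898239, plus strand) lies within ULK1, and neither is listed. The share of such reads in the members' values was not tested.

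Genes around the members on chromosome 12 were looked up for calls, which covered 13.0% of the 9551 genes tested with shFTO#5. The neighbours are annotated coding genes, counted whether tested or not, and their counts are not a result about them. Within 1 Mb of GABARAPL1, 0 of 48 coding genes were listed. Within 1 Mb of ULK1, 2 of 18 were listed, and in the authors' deposited table they moved in opposite directions: FBRSL1, a fibrosin-like protein, with a log2 change of -0.33 and PGAM5, a mitochondrial phosphatase, with 0.25.

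The listed genes most like each member were found by the Euclidean distance of log2 FPKM, relative to the shControl mean, over the 4 shFTO#5 and shControl libraries. For ULK1 these were TPRN, an actin-associated protein of hair cell stereocilia (distance 0.0208), GLI4, a zinc finger protein (0.0297), and ZBED3, a BED-type zinc finger protein that binds Axin in the Wnt pathway (0.0380). TPRN had 16.0 and 15.6 FPKM in the shFTO#5 libraries, against 22.6 and 23.3 FPKM in the shControl libraries. Its shFTO#5 mean was 68.8% of control, beside 70.3% for GLI4 and 70.2% for ZBED3. For GABARAPL1 the nearest were MAP2, a microtubule-associated protein (distance 0.0792), METTL7A, a methyltransferase-like protein of lipid droplets (0.0923), and GAA, the lysosomal acid alpha-glucosidase (0.102). Their shFTO#5 means were 57.1%, 56.5% and 58.1% of control. The distance between ULK1 and GABARAPL1 was 0.342, so each resembled other listed genes more closely than its partner. Likeness over 4 libraries of the same contrast describes these values alone.

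The rest of the pathway was read from 11 lists of 178 annotated autophagy and lysosome genes. With both members counted, 17 (9.55%) were listed, 11 lower with shFTO#5 (6.18% of the lists) and 6 higher (3.37%), beside 4.83% lower and 8.18% higher among all genes tested. Without the members, 15 of 176 (8.52%) were listed, 9 lower (5.11%) and 6 higher (3.41%). Without the members, 5.11% lower thus stood beside 4.83% of all genes tested, and 3.41% higher beside 8.18%. The list shares count annotated genes whether tested or not, so the shares are not fully alike and no result about the lists is read from them. The median log2 change of those 15 was -0.23, against 0.15 over all listed genes. Both medians cover only called genes, and a gene that is not listed may have been tested without a call or not tested. At the stricter adjusted p of 0.01, 8 of the 17 were lower and 6 higher.

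Around ULK1, the kinase was the only member of the 6-gene ULK complex that was listed (16.7%), beside 13.0% of all genes tested with shFTO#5. Of 35 genes of AMPK and mTORC1, the kinases that switch ULK1 on and off, 4 were listed (11.4%). Both shares are near that of all genes and are not a result about these lists. PRKAG2, the gamma 2 regulatory subunit of AMPK, had 17.6 and 16.2 FPKM in the shFTO#5 libraries and 18.4 and 17.3 FPKM in the shFTO#2 libraries, against 12.5 and 13.1 FPKM in the shControl libraries. All 4 knockdown libraries lay above both controls, which goes with its selection as a call of both hairpins. PRKAG2 rose by a log2 change of 0.37 ± 0.06 with shFTO#5 and 0.45 with shFTO#2, or 0.28 and 0.30 after centring. MLST8, a subunit of the mTOR complexes, fell to 48.3 ± 2.34 FPKM with shFTO#5 and 48.8 ± 1.54 with shFTO#2, against 58.4 ± 1.97 with shControl (SD, n = 2 each), and its log2 change with shFTO#2 was -0.26, or -0.41 after centring. RRAGD, a Rag GTPase that brings mTORC1 to the lysosome (-0.30 ± 0.05, SE), and FNIP2, a folliculin partner that binds AMPK (-0.33 ± 0.06), fell with shFTO#5 and have no placed shFTO#2 values. The shFTO#5 calls of MLST8 and FNIP2 did not reach the stricter threshold.

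Of the steps between ULK1 and GABARAPL1, the lipid kinase PIK3C3 complex (9 genes) and the ATG9, ATG2 and WIPI group (10 genes) each had 0 listed. In the ATG8 conjugation machinery 1 of 12 was listed (8.33%): ATG16L1, the scaffold that directs lipid attachment of ATG8 proteins. It had 13.7 and 13.1 FPKM in the shFTO#5 libraries, against 10.7 FPKM in each shControl library. ATG16L1 rose by 0.30 ± 0.06 (SE), or 0.21 after centring, while GABARAPL1 was lower. GABARAPL1 was the only one of the 7 ATG8-family genes that was listed (14.3%), near the 13.0% of all genes tested with shFTO#5. No call is at hand for its paralogs GABARAP, GABARAPL2 or the MAP1LC3 genes.

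Of 21 receptors, which tie cargo to ATG8 proteins, 4 were listed (19.0%), 2 in each direction. Of all genes tested with shFTO#5, 13.0% were called. SQSTM1, the ubiquitin-binding receptor p62, was the most abundant, with 678 and 692 FPKM in the shFTO#5 libraries and 595 and 616 FPKM in the shFTO#2 libraries, against 744 and 756 FPKM in the shControl libraries. Its 3 groups did not overlap, with shFTO#2 the lowest, and such separation of the hairpins alone held for 58.6% of the placed genes. SQSTM1 fell by 0.13 ± 0.03 (SE) on the log2 scale with shFTO#5, a call that did not reach the stricter threshold, and fell by 0.31 ± 0.03 with shFTO#2. The difference between the hairpins was 0.18 ± 0.03 (shFTO#5 minus shFTO#2; adjusted p = 0.00631, limma over 561 genes), and it did not pass after quantile normalization (adjusted p = 0.0857, limma), without shFTO#5 replicate 1 (0.0698) or without shFTO#5 replicate 2 (0.0941). SQSTM1 entered this test as a call of shFTO#5, and the same shFTO#5 values enter the difference, so its p-values are a description. TOLLIP, a receptor for ubiquitinated aggregates, fell with shFTO#5 (-0.30 ± 0.05, SE). The mitophagy receptors BNIP3 (0.16 ± 0.03) and PHB2 (0.15 ± 0.03) rose with shFTO#5. After centring of the libraries these were 0.07 ± 0.03 and 0.06 ± 0.03, while SQSTM1 had -0.22 with shFTO#5. Centring used the medians of listed genes only, of which 781 of 1242 were higher with shFTO#5. The authors' deposited table gave 0.19 for BNIP3, 0.18 for PHB2 and -0.09 for SQSTM1 with shFTO#5. TOLLIP, BNIP3 and PHB2 have no placed shFTO#2 values.

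At the lysosome, 6 of 36 membrane proteins and hydrolases were listed (16.7%), beside 13.0% of all genes tested with shFTO#5. Of the 6, 4 fell with shFTO#5 (11.1% of the list, beside 4.83%) and 2 rose (5.56%, beside 8.18%). GAA, which breaks down glycogen, had 4.64 and 4.30 FPKM in the shFTO#5 libraries and 5.06 and 5.61 FPKM in the shFTO#2 libraries, against 7.40 and 7.99 FPKM in the shControl libraries. Its log2 change was -0.67 ± 0.06 (SE) with shFTO#5 and -0.46 ± 0.06 with shFTO#2, and with shFTO#5 it was the listed autophagy or lysosome gene nearest in size to GABARAPL1. NEU1, the lysosomal sialidase, had -0.41 ± 0.05 and -0.27 ± 0.06 with the same hairpins, and ASAH1, the acid ceramidase, -0.39 ± 0.04 and -0.29 ± 0.07. CTSD, the aspartic protease cathepsin D, fell with shFTO#5 (-0.23 ± 0.04) and has no placed shFTO#2 value. The other two rose: CTSL, the cysteine protease cathepsin L, which the table lists under its older name CTSL1, by 0.24 ± 0.04 with shFTO#5 and 0.19 with shFTO#2, and NPC1, the cholesterol exporter of the lysosomal membrane, by 0.25 ± 0.05 with shFTO#5. After centring, CTSL1 had 0.15 ± 0.04 with shFTO#5 and 0.04 ± 0.04 with shFTO#2, and NPC1 had 0.16 ± 0.05 with shFTO#5. The authors' deposited table gave CTSL1 0.27 with shFTO#5 and 0.20 with shFTO#2, and NPC1 0.28 with shFTO#5. With shFTO#2 it gave NEU1 -0.23 and ASAH1 -0.25. NEU1 had -0.42 and ASAH1 -0.44 with shFTO#2 after centring, and ASAH1 had -0.18 with shFTO#2 when shFTO#2 replicate 1 was left out and -0.44 after quantile normalization.

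**Figure D4:**
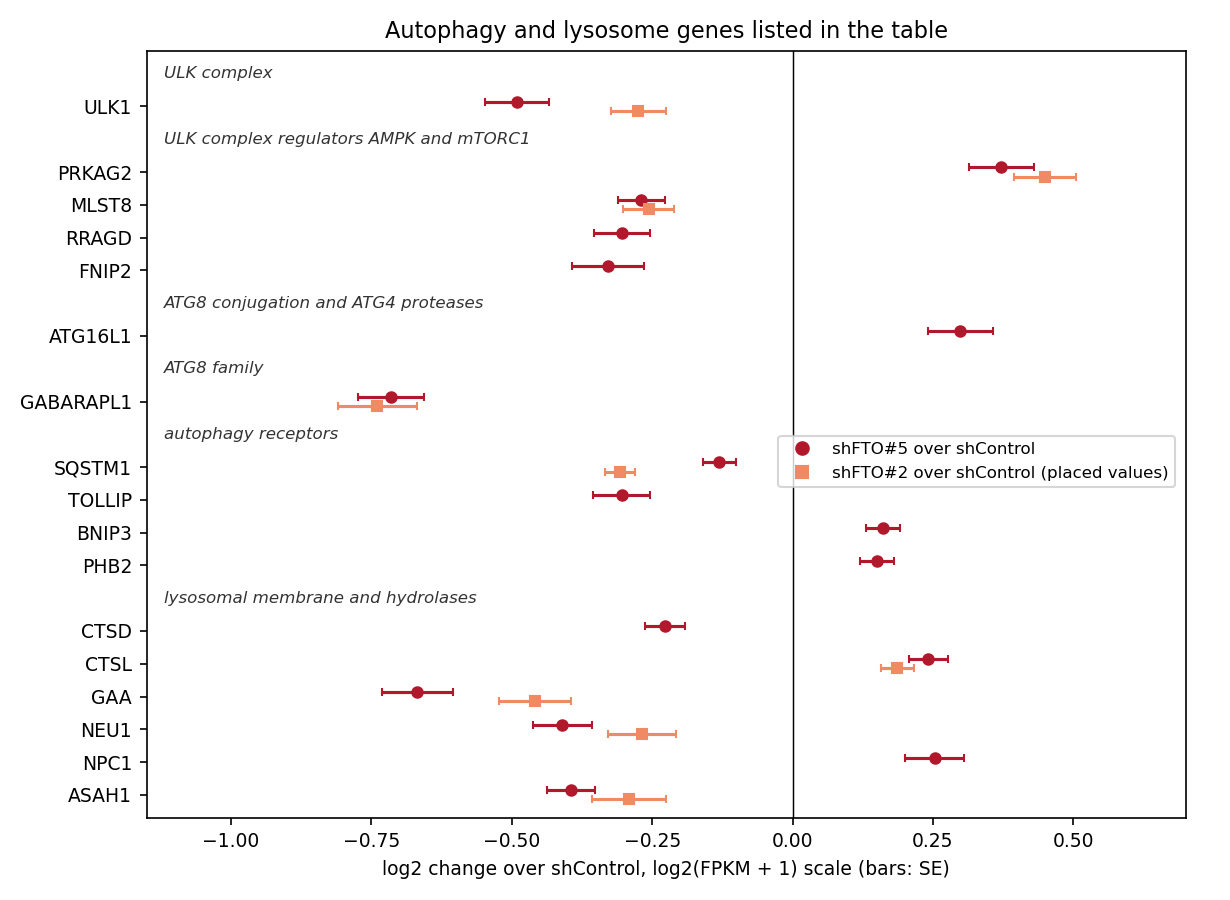
Log2 change over shControl, on the log2(FPKM + 1) scale with SE bars, of the 17 listed autophagy and lysosome genes by role, with shFTO#5 (red circles) and, where a value was placed, shFTO#2 (orange squares). GABARAPL1 lies furthest left with both hairpins, at -0.71 and -0.74, and the 6 genes right of 0 include PRKAG2 and ATG16L1.

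The remaining lists had 0 listed genes, where 13.0% of all genes tested were called with shFTO#5. They covered 13 genes of autophagosome-lysosome fusion and 10 transcription factors of autophagy genes, TFEB and FOXO factors among them. The last list held 19 V-ATPase subunits, which acidify the lysosome. With shFTO#2, 9 of the 178 genes (5.06%) had placed values, 7 lower and 2 higher, all by construction also calls of shFTO#5. Without the members, 7 of 176 (3.98%) had placed values, 5 lower and 2 higher. Of all genes tested with shFTO#2, 3.46% were called lower and 4.17% higher. Those shares include the 205 calls that were not placed, so they are no like measure for the placed shares of the lists. Of the 561 placed genes, 208 (37.1%) were lower. The few placed genes of the lists are a description.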

How the data were processed

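The members and gene lists were chosen with earlier results of these data known. Libraries were grouped by their sample titles. The labels do not say that replicates were separate cultures, so the spread behind every error and p-value here may be technical. The submitters' processing notes list Trim Galore 0.4.2, STAR, RSEM and hg38 and give no role for each. The authors deposited FPKM per library with gene lengths, and, per the file headers, their own log2 fold change, p-value and adjusted p-value for each gene. The deposited fold changes are control over knockdown, and signs were turned here to knockdown over control. The numbers of genes tested follow from Benjamini-Hochberg arithmetic on the deposited p-values.

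FPKM times gene length gave whole reads (tolerance 1e-05). The shFTO#2 values were placed by whole reads in both libraries, gene order and the authors' fold change (log2 tolerance 0.15, or the size of the fold change where larger). Replicates were kept apart, as each pair differed beyond counting noise (chi-square divided by its degrees of freedom 2.56 for shFTO#5, 4.57 for shFTO#2 and 3.76 for shControl).

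Errors come from limma 3.58.1 (R 4.3.3) with a trend on level, run on log2(FPKM + 1) after a filter that asked for 1 FPKM or more in 2 libraries: the shFTO#5 comparison on 1242 genes, the shFTO#2 and hairpin comparisons on 561 genes with all 3 groups, adjusted by Benjamini-Hochberg over these genes. The fit sees called genes only. FTO was tested with an exact permutation test (scipy 1.17.1). Genes named are FTO, the members, every listed gene of the lists, and the 3 listed genes nearest each member, with genes within 1 Mb added afterwards. Alternatives covered the pseudocount, scaling, filter, replicate block, placement, threshold and leaving out each library.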

Additional observations from a re-analysis of the deposited data

Results flagged for a closer look

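Between the FTO hairpins, limma's moderated test of shFTO#5 against shFTO#2, adjusted over the 561 placed genes, flagged 77 of them (13.7%). Of the 14 named genes with values in all 3 groups it flagged 2, SQSTM1 and ULK1. That share is near the share of all placed genes and is not a result about the named genes. All placed genes are calls of shFTO#5, and the same shFTO#5 values enter this test, so its p-values are a description. In SQSTM1, the p62 receptor, the difference was 0.18 ± 0.03 (SE; adjusted p = 0.00631), with both shFTO#5 libraries above both shFTO#2 libraries. Leaving out 1 library at a time gave an adjusted p between 0.000774 and 0.0941 (limma). In ULK1 the difference was -0.22 ± 0.05, with both shFTO#5 libraries below both shFTO#2 libraries. ULK1 was selected on the same shFTO#5 values, so no call is read from its difference.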

How the results depend on the processing

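No alternative turned the direction of either member against shControl. With each library centred on its median, which moved the median change by -0.09 with shFTO#5 and -0.15 with shFTO#2, ULK1 had -0.58 with shFTO#5 and -0.42 with shFTO#2, and GABARAPL1 had -0.89 with shFTO#2. With a pseudocount of 0, ULK1 had -0.53 with shFTO#5. Leaving out 1 library at a time gave -0.52 to -0.46 for ULK1 and -0.79 to -0.64 for GABARAPL1 with shFTO#5, and -0.32 to -0.23 for ULK1 and -0.83 to -0.65 for GABARAPL1 with shFTO#2. The difference between hairpins ranged from -0.26 to -0.17 for ULK1 and from -0.06 to 0.11 for GABARAPL1, and the planned test of the ULK1 difference, from which no call is read, missed its threshold without shFTO#5 replicate 1 (-0.24), shFTO#5 replicate 2 (-0.19) or shFTO#2 replicate 2 (-0.17). Centring used listed genes only, of which 781 of 1242 were higher with shFTO#5 and 353 of 561 with shFTO#2, so it lowered every change. The cause of the other shifts was not tested. The list counts of 11 lower and 6 higher follow the authors' calls, so that in these settings only a sign could change them, and none did.

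With the replicate number as a block, ULK1 had -0.49 with shFTO#5 and -0.27 with shFTO#2, GABARAPL1 had -0.71 and -0.74, and the ULK1 difference between hairpins was -0.22. The labels share only replicate numbers, and deviations of same-numbered libraries correlated at 0.0884 to 0.218 between groups. Of 367 values of the other 21 named genes, 0 changed direction and 57 moved by more than the spread between replicates.

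These values are limited by 2 libraries a group, genes listed only when called with shFTO#5, shFTO#2 values out of gene order and no values for the 161 unlisted genes of the lists.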
